A study of Mus musculus with 5 samples.

Results

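The proteasome subunit genes were followed in fat cells differentiated in culture from the mouse mesenchymal line C3H10T1/2. The series set 3 plant polyphenols side by side to look for factors that promote or oppose adipogenesis. The 41 genes were chosen by symbol from the families Psma, Psmb, Psmc, Psmd and Psme. Each was read on its brightest probe set, that is, the single-gene probe set chosen by its highest mean log2 intensity over all 5 arrays. A single-gene probe set was present for 40 of the 41, out of 18193 genes in all, and these 40 had 86 such probe sets among 45037. Psme2 had only a probe set that the platform annotation also gives to Psme2b, so no value is reported for it. Fully differentiated cells received butein, sulfuretin or the solvent DMSO for 6 h. A further pair of cultures received resveratrol or DMSO for 6 h, and this second solvent array, DMSO1, is labelled as the resveratrol control. Each group was 1 array of total RNA from this 1 cell line, so no difference below has an error from replicates and no test was possible within a comparison. Butein is a chalcone and sulfuretin an aurone, both with a catechol ring, and resveratrol is a stilbene without one. No label gives a dose.

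The proteasome degrades proteins tagged with ubiquitin. Its 20S core is a barrel of outer alpha rings, which gate the entry, and inner beta rings, which hold the proteolytic sites. The 19S regulatory particle caps the barrel. Its base carries a ring of ATPases that unfold the substrate, and its lid carries the enzyme that removes the ubiquitin chain. Interferon-induced beta subunits can replace the catalytic ones to form the immunoproteasome, and activators other than 19S can also open the core. Proteasome genes are known to be switched on together by the transcription factor NRF1, encoded by Nfe2l1, when proteasome activity falls, and several of them by NRF2, encoded by Nfe2l2, under oxidative stress.

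The sorted values of butein, sulfuretin and DMSO nearly coincided, with mean absolute log2 differences between 0.0074 and 0.013, as did those of resveratrol and DMSO1 (0.014). Between these sets the difference was 0.50 to 0.51, so the main comparisons of each compound used only arrays of its own set. Comparisons that use the other set's solvent array are named as such where they are given. Intensities of the other set are printed beside those of a compound's own set and give no order across sets. All 40 measured members were among the 12439 genes that reached the floor, an intensity of 8.39, on at least 1 array. Psmb8 reached it only on the resveratrol and DMSO1 arrays. The adipocyte markers were bright on every array, with a summed intensity of 7 measured markers of 19354 with butein, 21999 with sulfuretin and 22121 with DMSO, and of 20697 with resveratrol and 22238 with DMSO1. All 7 were lower with butein than with DMSO, by a median log2 difference of -0.25, and their part in the results was not tested. The muscle gene Acta1 and the cartilage gene Col2a1 were also lower with butein, by log2 differences of -0.65 and -0.78. Summed over all measured markers, macrophage and blood cell genes gave 57.2 to 74.9 on the 5 arrays, muscle genes 60.0 to 192 and osteoblast and chondrocyte genes 122 to 175. Ptprc, Adgre1, Myod1, Myog and Myh3 were under the floor on all 5 arrays. Mesenchymal or fibroblast markers, led by Col3a1, summed to 4416 to 5357. In such bulk RNA, fewer cells of a type and less RNA per cell cannot be told apart.

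With butein most proteasome genes were slightly higher than with DMSO, and the higher values lay mainly among 19S genes. Of the 40 members, 29 were higher, 6 had exactly equal values and 5 were lower, whereas of all 12439 counted genes 33.0% were higher, 29.9% exactly equal and 37.1% lower. The members' median log2 difference was 0.12, a 1.09-fold level, and that of all counted genes was 0. Against the DMSO1 array in place of DMSO the members' median was -0.073, while that of all counted genes was -0.54. A gap also lay between the solvent arrays alone, with medians for DMSO1 minus DMSO of 0.28 and 0.54. Sulfuretin against DMSO1 likewise had medians of -0.28 and -0.52. Higher by a log2 difference of at least 0.32, the lower of the criteria used here, were 9 members, set against 11.4% of all counted genes. They were 8 of the 20 19S genes, assembly chaperones of the base included, and 1 of the 14 genes of the constitutive 20S core. At least 1.5-fold higher were 3 members, set against 5.01%. Lower by at least 0.32 was 1 member (9.2% of all counted genes), and 0 were 1.5-fold lower (2.47%). The share of members past 1.5-fold was thus near the background, and the pattern lay in small differences of one sign.

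**Figure D1:**
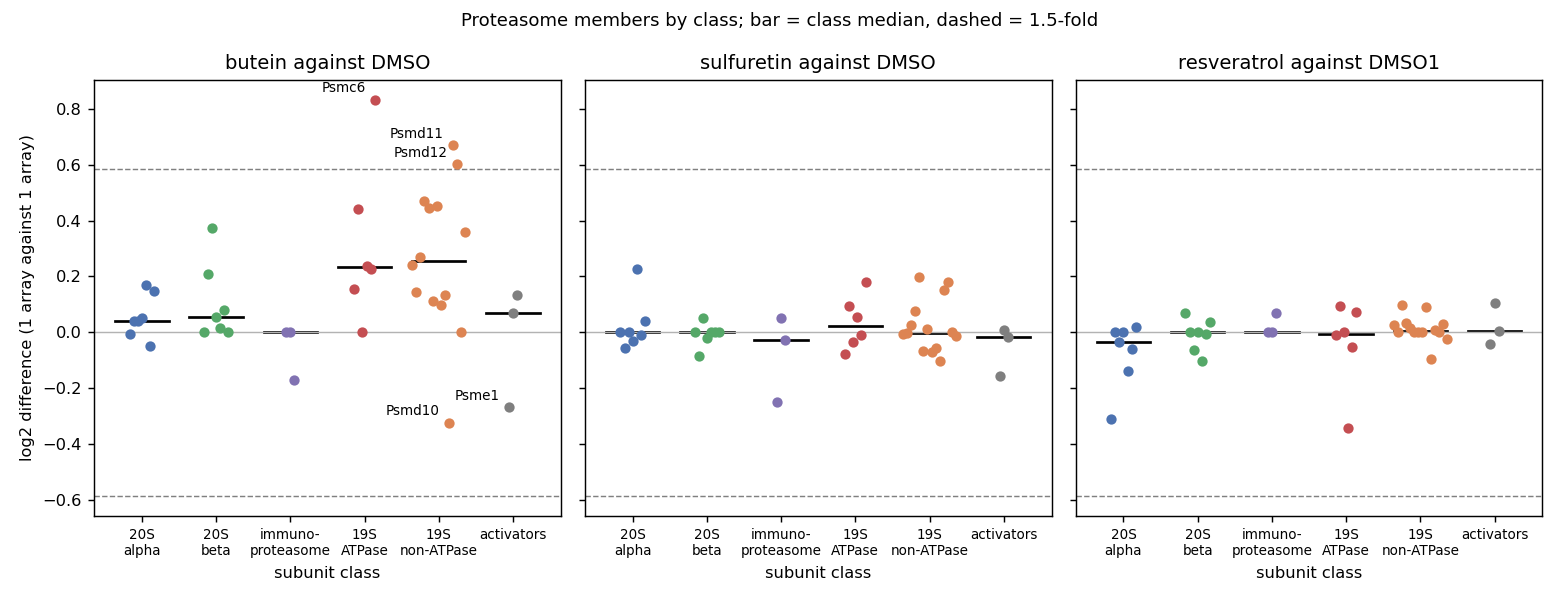
Log2 difference of each of the 40 measured members (points), by class, for butein and sulfuretin against DMSO and resveratrol against DMSO1, 1 array against 1 array. Bars are class medians and dashed lines mark 1.5-fold; with butein the 19S classes sit at medians of 0.23 and 0.26, and 3 of their genes lie above the upper line.

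Among the ATPases of the 19S base, Psmc6 (NCBI gene 67089) stood highest. Its intensity was 521 with butein, 332 with sulfuretin and 293 with DMSO, and 540 with resveratrol and 513 with DMSO1. The butein value was the highest of its set, 1.78-fold over DMSO. Psmc2 (NCBI gene 19181) read 863 with butein, 678 with sulfuretin and 635 with DMSO, next to 786 with resveratrol and 736 with DMSO1, and was 1.36-fold higher with butein than with DMSO. Of the other ATPase genes, Psmc4 was 1.18-fold, Psmc5 1.17-fold and Psmc1 1.11-fold higher with butein, and Psmc3 had the same value of 335 with butein and with DMSO. The ATPase median was a log2 difference of 0.23.

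In the lid, 7 of the 8 genes among the members were higher with butein and 1 was exactly equal, with a median log2 difference of 0.31. Sem1, a lid subunit gene outside the 41 listed, read 665 with butein and 683 with DMSO. Psmd11 (NCBI gene 69077), a scaffold subunit of the lid known as RPN6 in yeast, read 1177 with butein, 821 with sulfuretin and 740 with DMSO, and 771 with resveratrol and 768 with DMSO1. Butein gave the highest value of its set, 1.59-fold over DMSO. Psmd12 (NCBI gene 66997), the lid subunit named RPN5 in yeast, read 441 with butein, 329 with sulfuretin and 291 with DMSO. It was 1.52-fold higher with butein than with DMSO, and read 460 on both the resveratrol and the DMSO1 array. The first member short of 1.5-fold was Psmd4, a gene of the base and not of the lid (1.38-fold).

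The deubiquitinase of the lid and its partner were both higher. Psmd14 (NCBI gene 59029), which encodes the enzyme that cuts ubiquitin chains off substrates, read 1119 with butein, 866 with sulfuretin and 874 with DMSO, and 1000.2 with resveratrol and 1018 with DMSO1. Psmd7 (NCBI gene 17463), whose product pairs with that enzyme, read 208 with butein, 153 with sulfuretin and 152 with DMSO, and 383 on both arrays of the other set. The differences from DMSO were 1.28-fold and 1.37-fold. Psmd3 was 1.20-fold, Psmd6 1.08-fold and Psmd8 1.07-fold higher with butein, and Psmd13 read 97.6 on the butein, sulfuretin and DMSO arrays alike. Psmd14 was the member just past the log2 criterion of 0.32 and Psmd3 the first short of it.

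The large scaffold genes of the base and its ubiquitin receptor were also higher with butein. Psmd4 (NCBI gene 19185), a receptor for ubiquitin chains, read 576 with butein, 439 with sulfuretin and 417 with DMSO, and 534 with resveratrol and 522 with DMSO1. Psmd1 was 1.18-fold and Psmd2 1.11-fold higher with butein than with DMSO. The Psmd family also holds chaperones that help to assemble the 19S base and leave the finished particle. These did not share a direction, since Psmd5 was 1.36-fold higher, Psmd9 1.10-fold higher and Psmd10, which encodes gankyrin, lower with butein by a log2 difference of -0.32. Psmd10 (NCBI gene 53380) read 107 with butein, 125 with sulfuretin and 134 with DMSO, and was the lowest member in that comparison.

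**Figure D2:**
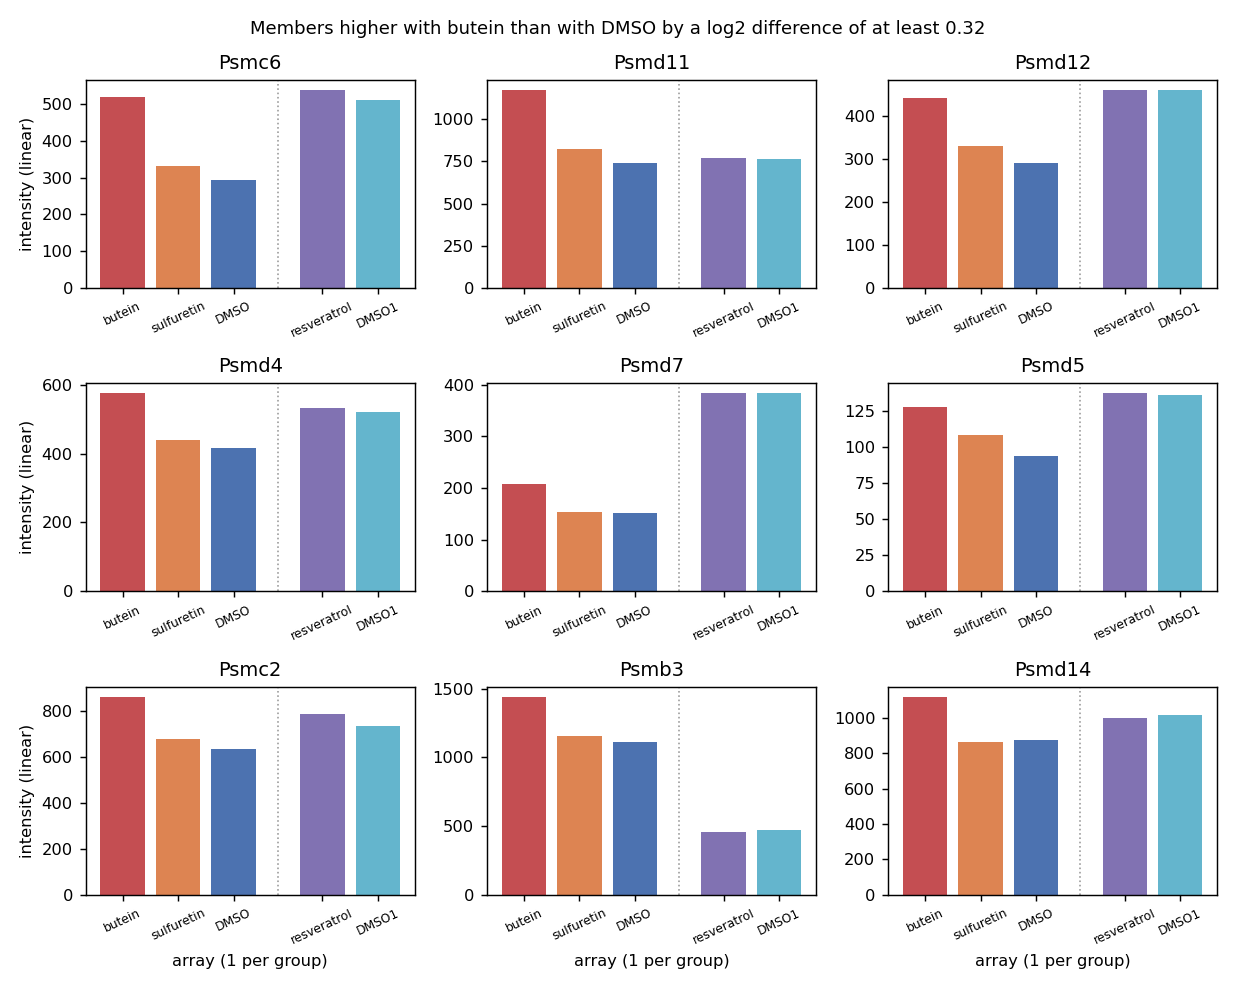
Deposited intensity (linear, from 0) of the 9 members higher with butein than with DMSO by a log2 difference of at least 0.32, 1 bar per array, with the dotted line between the sets of arrays. Within the first set butein is the highest bar in all 9 panels, and sulfuretin lies above DMSO in all but Psmd14.

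Promoter windows are shown for the 3 genes past 1.5-fold with butein and for Psmb5, a core catalytic gene whose level with butein was 1.01-fold that with DMSO. They are RefSeq sequences of build GRCm38.p6, from 250 bases before to 50 bases after the gene start, written 5′ to 3′ along the gene. Capitals mark each match on either strand to TGACNNNGC, the core of the antioxidant response element to which NRF1 and NRF2 bind with small MAF partners.
Psmc6, chr14:45329574-45329873, plus strand: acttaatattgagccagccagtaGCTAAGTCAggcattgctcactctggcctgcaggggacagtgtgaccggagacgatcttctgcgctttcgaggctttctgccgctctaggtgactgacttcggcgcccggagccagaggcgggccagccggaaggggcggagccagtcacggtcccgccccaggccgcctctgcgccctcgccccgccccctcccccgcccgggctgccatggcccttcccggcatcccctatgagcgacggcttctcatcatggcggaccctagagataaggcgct
Psmd11, chr11:80428365-80428664, plus strand: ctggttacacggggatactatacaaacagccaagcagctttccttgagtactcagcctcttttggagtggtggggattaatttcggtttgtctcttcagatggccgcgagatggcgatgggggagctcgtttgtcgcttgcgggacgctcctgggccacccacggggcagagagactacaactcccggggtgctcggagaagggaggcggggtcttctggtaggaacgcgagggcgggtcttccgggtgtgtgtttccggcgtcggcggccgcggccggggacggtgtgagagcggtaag
Psmd12, chr11:107479278-107479577, plus strand: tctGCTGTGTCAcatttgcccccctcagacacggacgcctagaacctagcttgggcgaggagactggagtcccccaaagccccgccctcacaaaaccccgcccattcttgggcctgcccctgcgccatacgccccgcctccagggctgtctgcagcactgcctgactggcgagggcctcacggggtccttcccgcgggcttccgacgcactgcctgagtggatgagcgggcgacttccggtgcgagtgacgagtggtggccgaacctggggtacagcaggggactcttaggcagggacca
Psmb5, chr14:54617946-54618245, minus strand: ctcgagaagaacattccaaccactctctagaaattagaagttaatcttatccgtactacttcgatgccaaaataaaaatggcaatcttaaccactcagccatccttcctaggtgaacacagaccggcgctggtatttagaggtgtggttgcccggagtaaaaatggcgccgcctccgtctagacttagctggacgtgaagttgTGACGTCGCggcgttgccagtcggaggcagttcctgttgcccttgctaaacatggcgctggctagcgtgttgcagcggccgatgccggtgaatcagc
Psmc6 held the match at position -227 and Psmd12 at position -247, counted from the gene start, and Psmd11 held none in this window. Psmb5 held it at position -47. A promoter was listed for 35 of the 41 members, and 6 of these held the letters, or 17.1%, compared with 14.0% of 27025 genes. The others with a match were Psmb6, Psmd9 and Psme4. The share was 3 of 17 among 19S genes and 2 of 11 among constitutive core genes. The CCAAT box (CCAAT, either strand) was present in 13 of 35 members, or 37.1%, compared with 41.1% of all genes. Psmb1, Psmb2, Psmb7, Psmc3, Psmd3 and Psmd7 are not in the promoter table.

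The 20S core was nearly level with butein. The 7 alpha genes, which form the gate rings, had log2 differences between -0.049 (Psma6) and 0.17 (Psma5), with a median of 0.042. Psma7 was 1.11-fold higher, Psma2, Psma3 and Psma4 were 1.03-fold to 1.04-fold higher, and Psma1 was at 0.996 of its DMSO level. The 7 constitutive beta genes had a median log2 difference of 0.054. Psmb3 (NCBI gene 26446), a structural beta subunit without a proteolytic site, was the exception at 1441 with butein, 1152 with sulfuretin and 1113 with DMSO, or 1.29-fold over DMSO. It read 453 with resveratrol and 473 with DMSO1. Its second probe set read 899, 729 and 723 on the butein, sulfuretin and DMSO arrays and 695 and 700.0 on the resveratrol and DMSO1 arrays.

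The constitutive catalytic genes showed almost no difference. Psmb5, the chymotrypsin-like subunit, read 699.7 with butein and 693 with both sulfuretin and DMSO, and 657 with resveratrol and 706 with DMSO1. Psmb6, the caspase-like subunit, read 605 with butein and 573 with both sulfuretin and DMSO, and 579 with resveratrol and 582 with DMSO1. Psmb7, the trypsin-like subunit, read 139 on the butein, sulfuretin and DMSO arrays and 716 with resveratrol and 697 with DMSO1. Psmb7 thus had exactly equal values in the first set, a tie that may not be a measured absence of difference. Its log2 difference for DMSO1 minus DMSO, on different scales, was 2.32. Of the remaining structural beta genes, Psmb2 was 1.16-fold and Psmb4 1.04-fold higher with butein, and Psmb1 read 1152 on all 3 arrays of its set.

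The immunoproteasome genes were dim or lower with butein. Psmb8, which replaces Psmb5, read 7.83 with butein, 6.59 with sulfuretin and 7.83 with DMSO, all under the floor, and 9.5 with resveratrol and with DMSO1. Psmb9, which replaces Psmb6, read 27.0 with butein, 28.0 with sulfuretin and 27.0 with DMSO, and 35.8 on both other arrays. Psmb10, which replaces Psmb7, read 187 with butein, 207 with sulfuretin and 210.5 with DMSO, or 1.13-fold lower with butein, and 153 with resveratrol and 146 with DMSO1. None of the 3 was higher with butein than with DMSO.

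The activators differed among themselves. Psme1 (NCBI gene 19186), a subunit of the interferon-induced PA28 cap, read 322 with butein, 348 with sulfuretin and 388 with DMSO, and was 1.20-fold lower with butein. Psme3, the nuclear PA28 gamma subunit, read 70.2 with butein, 67.3 with sulfuretin and 66.9 with DMSO. Psme4, which encodes the large activator PA200, read 468 with butein, 422 with sulfuretin and 427 with DMSO. Psme4 was 1.10-fold and Psme3 1.05-fold higher with butein than with DMSO. The genes that interferon is known to induce, Psmb8, Psmb9, Psmb10 and Psme1, were thus either exactly equal or lower with butein.

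The split between 19S and 20S genes depended on the control array. Against DMSO, the 20 19S genes had a median log2 difference of 0.24 with butein and the 14 constitutive core genes 0.046. Against DMSO1, after centring on all counted genes, the medians were 0.47 for 19S and 0.54 for the core. After joint quantile normalization and with DMSO1 as control they were 0.39 and 0.33. The order of these medians thus turned with the control and the scaling. Sulfuretin minus butein, which uses no solvent array, gave -0.24 for 19S and -0.058 for the core.

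Other probe sets of the same genes were read on the same arrays, so they check the choice of probes and not the cultures. The members had 46 other single-gene probe sets, 33 of them above the floor on at least 1 array. With butein 18 of the 33 were higher than with DMSO, 9 exactly equal and 6 lower. The lower ones belonged to Psma1, Psma6, Psmb4 and Psmd13. Some of the 33 were above the floor only on part of the arrays, so this tally is a weak check. A Psme4 probe set counted as higher passed only through butein (10.1) and sulfuretin (9.12), with 7.62 for DMSO. A Psma1 probe set counted as lower was under the floor on the butein, sulfuretin and DMSO arrays, and so were several exactly equal ones. The same shares over the other probe sets of all genes were not computed. For the genes whose brightest probe set was higher by at least 0.32, 12 other probe sets in 6 genes were above the floor. Of these 9 were higher, 3 exactly equal and 0 lower, but their genes had been picked for being higher on the same arrays. Psmd11 had probe sets 1.68-fold, 1.29-fold and 1.27-fold higher and 2 exactly equal ones under the floor on the butein, sulfuretin and DMSO arrays. The second probe set of Psmc2 was 1.52-fold higher, 1 of Psmd4 1.30-fold and that of Psmb3 1.24-fold. That of Psmc4, whose brightest probe set was short of 0.32, was 1.31-fold higher. For Psmc6, however, the other probe sets were only 1.22-fold and 1.02-fold higher, the dimmer of them at 13.5 with butein and 13.2 with DMSO. With the mean of all probe sets, Psmc6 had a log2 difference of 0.38, in place of 0.83, and Psmd11 of 0.27, in place of 0.67, and 1 member, Psmd12 with its single probe set, was past 1.5-fold.

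**Figure D3:**
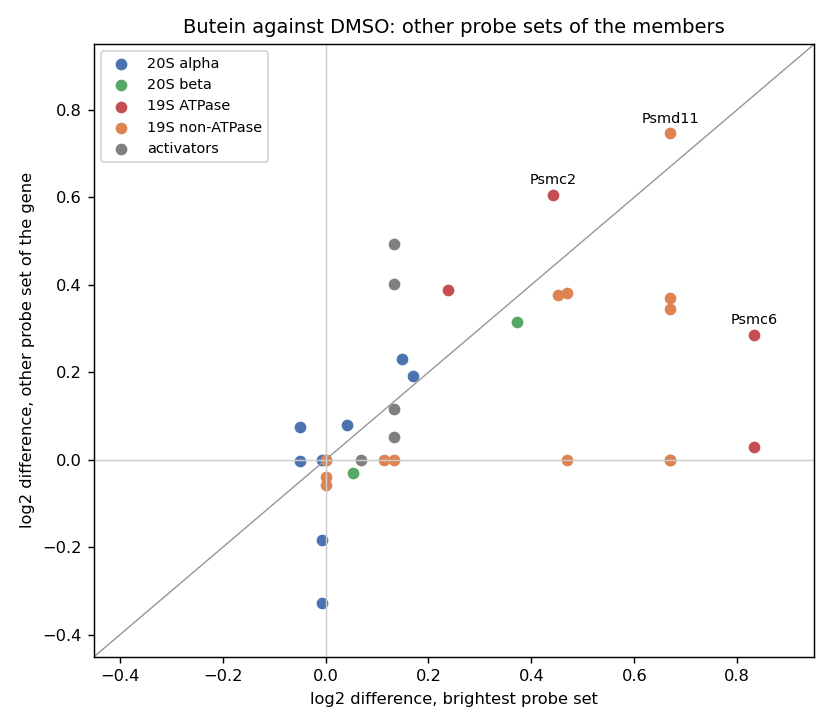
Log2 difference with butein against DMSO for the 33 other probe sets above the floor (vertical axis), against that of the same gene's brightest probe set (horizontal axis), coloured by class, with the line of equality. The other probe sets of Psmc6 lie far below the line, and those above it include 1 of Psmd11 and 1 of Psmc2.

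Sulfuretin left the proteasome genes near their DMSO level. Of the 40 members, 14 were higher, 7 exactly equal and 19 lower, and the median log2 difference was 0, as for all counted genes. Of all counted genes 34.8% were higher, 32.5% exactly equal and 32.6% lower. No member differed by 0.32 on the log2 scale (5.33% of all counted genes were higher and 2.62% lower by that much), and so none was past 1.5-fold either (1.36% higher and 0.378% lower). The highest was the alpha ring gene Psma5 at 992 with sulfuretin and 848 with DMSO, or 1.17-fold, and its second probe set was 1.14-fold higher. Next came Psmd5 (1.15-fold), Psmc6 and Psmd12 (1.13-fold each) and Psmd11 (1.11-fold). The lowest were Psmb8, under the floor (1.19-fold lower), Psme1 (1.12-fold), Psmd10 (1.07-fold), Psmb2 (1.06-fold) and Psmc1 (1.06-fold). The catalytic genes Psmb5, Psmb6 and Psmb7 had values exactly equal to those of DMSO, and such ties may not be a measured absence of difference.

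Set directly against butein, sulfuretin was lower for most 19S genes. The time was the same, but as doses are not given the values stand side by side and do not rank the compounds. Of the 40 members, 30 were lower with sulfuretin than with butein, 3 exactly equal and 7 higher. Of all counted genes 30.1% were lower, 32.9% exactly equal and 37.0% higher. The members' median log2 difference was -0.15 beside 0 for all counted genes. All 6 ATPase genes and 18 of the 20 19S genes were lower. Lower by a log2 difference of at least 0.32 were 8 members (7.12% of all counted genes) and 0 were higher by as much (5.98%). Only Psmc6 was 1.5-fold lower, at 1.57-fold (2.83% of all counted genes), and 0 members were 1.5-fold higher (0.981%). Psmd11 was 1.43-fold, Psmd7 1.36-fold and Psmd12 1.34-fold lower with sulfuretin. At the other end, Psmd10 was 1.17-fold, Psmb10 1.10-fold and Psme1 1.08-fold higher with sulfuretin than with butein.

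**Figure D4:**
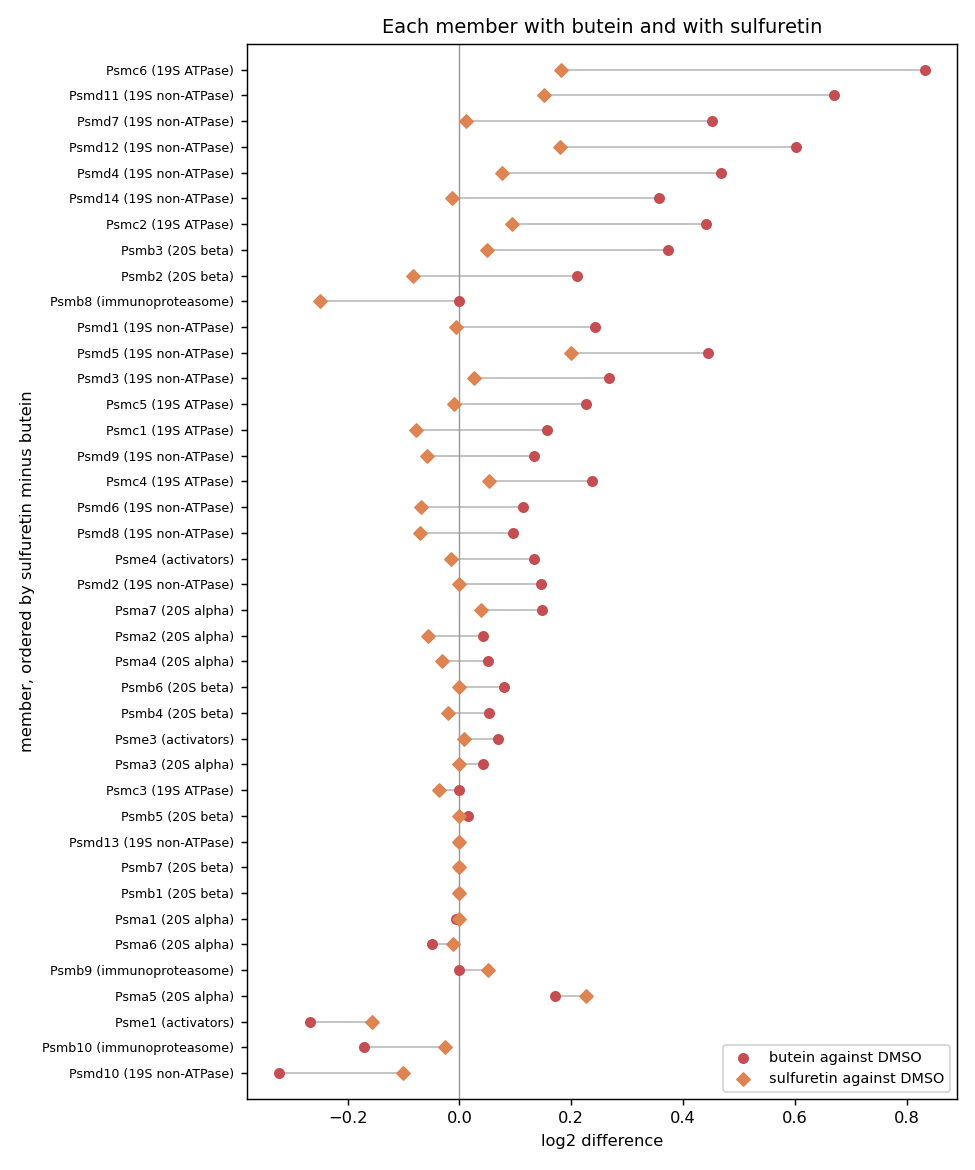
Log2 difference from DMSO of each of the 40 members with butein (circles) and with sulfuretin (diamonds), joined by a line and ordered by the difference between the compounds; both use the same DMSO array. Psmc6 has the longest line at the top, and Psmd10, Psmb10 and Psme1, at the bottom, lie lower with butein.

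Resveratrol also left the proteasome genes near the level of their control. Of the 40 members, 16 were higher than with DMSO1, 11 exactly equal and 13 lower, and the median was 0, as for all counted genes. Of all counted genes 32.9% were higher, 33.1% exactly equal and 34.0% lower. No member was higher by a log2 difference of 0.32 (1.61% of all counted genes) and 1, Psmc4, was lower by as much (2.06%). None was past 1.5-fold, beside 0.338% of all counted genes higher and 0.362% lower. Psmc4 (NCBI gene 23996) read 406 with resveratrol and 515 with DMSO1, or 1.27-fold lower, but its second probe set was 1.03-fold higher, at 225 with resveratrol and 219.8 with DMSO1. Psma1 (NCBI gene 26440) read 780 with resveratrol and 967 with DMSO1, or 1.24-fold lower. Its 3 dimmer probe sets, above the floor on at least 1 array, were lower too, by log2 differences of -0.74, -0.67 and -0.14. They read 6.73 to 18.0 with resveratrol and 10.7 to 22.9 with DMSO1. The probe set at -0.67 was under the floor with resveratrol, at 6.73. Psma5 (1.10-fold), Psmb5 (1.07-fold) and Psmd10 (1.07-fold) followed. The highest with resveratrol were Psme3 and Psmd3 (1.07-fold each), Psmc2 (1.07-fold), Psmd9 (1.06-fold) and Psmc6 (1.05-fold).

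The solvent arrays themselves differed. For DMSO1 minus DMSO, on different scales, the median log2 difference of the members was 0.28 and that of all counted genes 0.54. At least 1.5-fold higher in DMSO1 were 7 members (45.9% of all counted genes) and 1, Psmb3, was 1.5-fold lower (1.69%). Psmc6 differed by 0.81 and Psmd12 by 0.66 between the solvent arrays, beside 0.83 and 0.60 between butein and DMSO. Psmd11 differed by 0.053. A limma fit that took DMSO and DMSO1 as replicates called 0 of the 40 members for any compound at an adjusted p under 0.05, and 0 at an unadjusted p under 0.05, with 1 residual degree of freedom. Over all 12439 counted genes that fit called 20 for butein, 1 for sulfuretin and 0 for resveratrol at the adjusted threshold, so the count of 0 members says nothing particular about the proteasome genes.

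Several genes around the proteasome had larger differences with butein than any subunit. The lists were drawn up by function, but with earlier results of these data known. Of 10 measured proteasome-associated genes 4 were at least 1.5-fold higher with butein (5.01% of all counted genes) and 0 lower (2.47%). The median log2 difference of the 10 was 0.44, beside 0 for all counted genes. Zfand2a, which encodes a stress-induced partner of the 19S particle, read 740 with butein, 139.9 with sulfuretin and 103 with DMSO, or 7.17-fold over DMSO. Zfand5, the gene of a ubiquitin-binding protein that acts on the 26S particle, read 1970 with butein, 713 with sulfuretin and 481 with DMSO, and 802 with resveratrol and 521 with DMSO1. It was the 1 gene of this list past 1.5-fold with resveratrol, at 1.54-fold (0.338% of all counted genes were higher by that much). Akirin2, whose product brings proteasomes into the nucleus, was 1.92-fold and Txnl1, a thioredoxin-like partner, 1.53-fold higher with butein. The deubiquitinase gene Usp14 was higher by a log2 difference of 0.48, Uchl5 read 153 with butein and 175 with DMSO, and the lid subunit gene Sem1 read 665 and 683. With sulfuretin 0 of these 10 were past 1.5-fold (1.36% of all counted genes higher and 0.378% lower) and the median was 0.13.

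The ubiquitin shuttle and segregase list had 3 of 8 measured genes at least 1.5-fold higher with butein (5.01% of all counted genes) and 0 lower (2.47%). Sqstm1, the gene of the p62 receptor that carries ubiquitylated cargo, read 3128 with butein, 1948 with sulfuretin and 837 with DMSO, or 3.74-fold with butein and 2.33-fold with sulfuretin. The shuttle gene Rad23b was 1.81-fold and the segregase cofactor gene Nploc4 1.77-fold higher with butein, while Vcp, the segregase itself, was 1.13-fold higher. Among 4 measured regulators, Nfe2l2 read 408 with butein, 247 with sulfuretin and 216 with DMSO, or 1.88-fold with butein, and Nfe2l1 read 259.6 on the butein, sulfuretin and DMSO arrays alike. The 5 measured core assembly chaperone and related genes had a median of 0 with butein and none was past 1.5-fold. Pomp, which helps to close the core, was 1.07-fold higher and Psmg1 1.18-fold lower. On the same arrays Hmox1, an NRF2 target, was 20.9-fold and Dnajb1, a heat shock chaperone gene, 8.19-fold higher with butein.

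Antigen processing and interferon genes, set beside the immunoproteasome, had a median of 0 with butein over 11 counted genes. Irf1, an interferon-regulated factor, was 1.59-fold higher and was the 1 gene past 1.5-fold (5.01% of all counted genes higher and 2.47% lower). B2m read 2097 with butein, 2254 with sulfuretin and 2368 with DMSO. With resveratrol the 1 gene of the list past 1.5-fold (0.338% of all counted genes higher) was Cxcl10. It was 3.41-fold higher against a DMSO1 value of 3.52, which is under the floor. The testis and thymus subunit genes Psma8 and Psmb11 were under the floor on all 5 arrays.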

How the data were processed

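Per the labels, biotinylated cRNA from 500 ng of total RNA was hybridised to 5 Affymetrix arrays. The deposited intensity values were made by the authors with RMA, per the submitters' processing notes, with no version or output scale stated. Their range shows a linear scale, so log2 was taken without a pseudocount. Their sorted values fall into 2 sets, and no label states whether these were normalized separately. The platform annotation names 1 gene for 34945 of 45037 probe sets. A RefSeq table of assembly GRCm38.p6 held the gene IDs of 34741 of these and gave their current symbols. Each probe set's log2 values were averaged over the arrays, and the floor is the median of these averages. Log2 values less than 1e-06 apart count as exactly equal. Such ties between arrays are in the values as deposited (29.9% of counted genes for butein and DMSO), the step that made them is not stated, and an exact tie may therefore not be a measured absence of difference. The call was 1.5-fold, with a log2 difference of 0.32 as a lower criterion. Named in each comparison were members past 1.5-fold, otherwise the 5 highest and 5 lowest, and always the activators, immunoproteasome and catalytic genes; other members follow by role, and up to 4 genes past 1.5-fold per further list, with a few others described by function after their values were seen. Members and lists were chosen with earlier results of these data known. Precision is limited by the number of arrays. Software was limma 3.58.1 in R 4.3.3, and numpy 2.4.6, pandas 2.3.3 and matplotlib 3.10.9 in Python 3.11.15.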

Additional observations from a re-analysis of the deposited data

How the results depend on the processing

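With 1 array per group, 1 culture or 1 array could account for any single difference, and no replicate could be left out. No paired analysis was possible because each group holds 1 array. Below, counts are of members past 1.5-fold unless said otherwise, and a median was taken to have moved when it changed by at least 0.1. The members' median with butein stood above that of all counted genes in 11 of 11 settings, by 0.080 to 0.47. For sulfuretin minus butein it stood below that of all counted genes in 7 of 7, by -0.083 to -0.15. Centring on all counted genes cannot change these differences, so centred settings repeat uncentred ones. Dropping the floor also repeated the main values, 0.12 for butein and -0.15 for sulfuretin minus butein. A floor at percentile 75 left the latter at -0.15 as well. Every setting used the same butein array, so the settings are not independent of each other. The 0.47 was reached with DMSO1 as control, where the members' median with sulfuretin also stood 0.23 above that of all counted genes. Where a solvent array was exchanged, the scale changed with it; otherwise the cause of a shift was not tested.

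At a log2 difference of 0.32, butein against DMSO had 9 members higher (11.4% of all counted genes) and 1 lower (9.2%). Resveratrol against DMSO1 had 1 lower (2.06%), and sulfuretin against butein 8 lower (7.12%). At 2-fold both butein against DMSO and sulfuretin against butein had 0, but the share of all counted genes past 2-fold was not computed. With the mean of all probe sets, butein against DMSO had 1 higher and sulfuretin against butein 0 lower, beside 439 and 229 of 11544 genes. Without probe sets ending in _x_at or _s_at, Psmd11 was at 0.37 with butein against DMSO. In limma with the solvent arrays as replicates, 0 members were higher with butein, as deposited and after joint quantile normalization, where 20 of 12439 and 0 of 12119 genes were called.

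With the other solvent array as control, butein had 2 members higher, 5 lower and a median of -0.073, with 19S at -0.073, the 19S non-ATPase genes at -0.11 and Psmd12 at -0.061, all turned downward. Of all 12439 counted genes, 455 were higher and 5804 lower there for butein, 228 and 5505 for sulfuretin, and 5720 and 232 for resveratrol. Sulfuretin had 1 higher, 6 lower and a median of -0.28. Resveratrol had 7 higher, 1 lower and a median of 0.28. After centring on all counted genes, an alternative chosen after the data had been seen, these became 13 higher, 1 lower and 0.47 for butein, 6 higher, 2 lower and 0.23 for sulfuretin, and 2 higher, 6 lower and -0.26 for resveratrol. Over all counted genes, 1809 were then higher and 1806 lower for butein, 1330 and 1660 for sulfuretin, and 1691 and 1458 for resveratrol. With joint quantile normalization and the other solvent array, butein had 4 higher, 1 lower and a median of 0.34, sulfuretin 3 higher, 3 lower and 0.14, and resveratrol 3 higher and 2 lower. Of 12119 genes, 2295 were higher and 1327 lower for butein, 1965 and 1053 for sulfuretin, and 1094 and 1901 for resveratrol. With the mean of both solvent arrays, butein had 2 higher, 1 lower and a median of 0.0067, sulfuretin 1 higher, 2 lower and -0.13, and resveratrol 2 higher, 1 lower and 0.13. Of 12439 genes, 424 were higher and 2174 lower for butein, 98 and 1520 for sulfuretin, and 1644 and 67 for resveratrol.

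For DMSO1 minus DMSO, in settings also added later, joint quantile normalization gave 3 higher, 3 lower and a median of -0.11, and centring 2 higher, 4 lower and -0.25, so its sign turned with the scaling. Over all genes these settings had 1038 higher and 1866 lower, and 1632 higher and 1353 lower. Of the other recomputed values, 106 of the main counts and medians and 234 of the class and gene values stayed within these bounds, and 81 class and gene values moved without turning.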
